A study of Homo sapiens with 4 samples.

Results

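The genes described here are the protein-coding genes of the cytosolic ribosome, chosen by their symbols: RPL or RPS with a number and an optional A, L or X, together with RPSA, RPLP0, RPLP1 and RPLP2, without S6 kinases, pseudogenes or Y-linked genes. The rule found 82 genes, 50 of the large subunit and 32 of the small subunit, among 35585 named genes, and 81 of them passed the filter on low counts. They lie on 21 chromosomes, with 12 on chromosome 19. The series holds bulk RNA-seq of iMGL, human microglia-like cells differentiated from WTC11, a line of induced pluripotent stem cells. It has 2 S1KO libraries, from lines edited to lack the lipid phosphatase SHIP1 (gene INPP5D), and 2 WT libraries from control lines. The design text gives 2 clones per genotype, but the labels do not tie a library to a clone, so a p-value here reflects only how far these libraries lie apart, which may be technical.

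Each cytosolic ribosome carries 1 copy of nearly every one of these proteins. Most of the mRNAs begin with a 5′ terminal oligopyrimidine (TOP) tract, a cytosine at the cap followed by a run of pyrimidines. The kinase mTOR, through the RNA-binding protein LARP1, controls how well TOP mRNAs are translated, largely without changing how much mRNA there is. SHIP1 removes a phosphate from the membrane lipid made by phosphoinositide 3-kinase, which lies upstream of AKT and mTOR. RNA-seq reads the amount of mRNA and not its translation.

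The start sites show the feature that most of these genes share and that the symbol rule did not use. Of 65 members with a RefSeq promoter entry, 46 (70.8%) start with C followed by at least 4 more C or T, a run of at least 5, against 6.08% of 14830 other protein-coding genes and 4.07% of all 35116 promoter entries. The windows shown are for the stalk proteins, the S6 kinase substrate RPS6, several members at either end of the range of fold changes, and 2 pairs of related copies. Each runs from 15 bases before the annotated start to 15 bases from the start on, 5′ to 3′ on the gene's strand, from RefSeq on GRCh38.p14. A gene with several entries was counted if any of its starts held such a run, read on its own strand. Capitals mark the pyrimidine run that begins at the start site.
RPLP0 (chr12:120201097-120201126, minus strand): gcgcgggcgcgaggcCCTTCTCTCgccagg
RPLP1 (chr15:69452803-69452832, plus strand): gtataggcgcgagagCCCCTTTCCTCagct
RPLP2 (chr11:809952-809981, plus strand): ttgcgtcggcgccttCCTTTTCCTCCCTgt
RPS6 (chr9:19380222-19380251, minus strand): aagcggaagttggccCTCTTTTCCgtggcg
RPL13A (chr19:49487593-49487622, plus strand): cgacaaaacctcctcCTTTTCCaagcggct
RPL21 (chr13:27251543-27251572, plus strand): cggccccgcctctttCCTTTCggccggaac
RPS18 (chr6:33272060-33272089, plus strand): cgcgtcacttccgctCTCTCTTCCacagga
RPL29 (chr3:51995881-51995910, minus strand): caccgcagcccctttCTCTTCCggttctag
RPL36A (chrX:101390996-101391025, plus strand): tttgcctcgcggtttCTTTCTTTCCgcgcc
RPL36AL (chr14:49620612-49620641, minus strand): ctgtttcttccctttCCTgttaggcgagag
RPS27 (chr1:153990747-153990776, plus strand): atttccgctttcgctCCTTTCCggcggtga
RPS27L (chr15:63157463-63157492, minus strand): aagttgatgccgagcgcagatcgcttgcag
RPS27 and RPL36A start with such a run, while the windows of their copies RPS27L and RPL36AL do not hold one of that length at the start. The RPL36AL window does hold a longer pyrimidine run, which begins before the annotated start and crosses it. A match only describes the letters at the annotated start.

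The family as a whole took between 5.14% and 5.99% of the nuclear-encoded counts in every library, with the S1KO libraries inside the WT range. Levels are scaled to the total over genes outside the mitochondrially encoded genes and their nuclear copies, since these took 58.8% and 41.8% of the counts in S1KO, against 15.4% and 20.1% in WT. The members held 5.95% (Wilson 95% interval 5.94% to 5.97%) and 5.35% (5.34% to 5.37%) of the nuclear counts in S1KO 1 and 2, against 5.99% (5.98% to 6.003%) and 5.14% (5.13% to 5.15%) in WT 1 and 2. The intervals cover counting error only. Of the nuclear TPM (length-corrected transcript abundance), the members held 16.8% and 15.5% in S1KO, against 17.5% and 14.9% in WT. The log2 ratio of the mean shares, S1KO over WT, was 0.02 for counts and 0.00 for TPM. With the mitochondrial transcripts in the total, the share of TPM was 4.45% and 6.52% in S1KO, against 12.8% and 10.1% in WT, a log2 ratio of -1.07. The direction of the family therefore depends on whether mitochondrial transcripts are in the denominator. In bulk RNA, fewer cells of a type and less RNA per cell cannot be told apart.

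**Figure D1:**
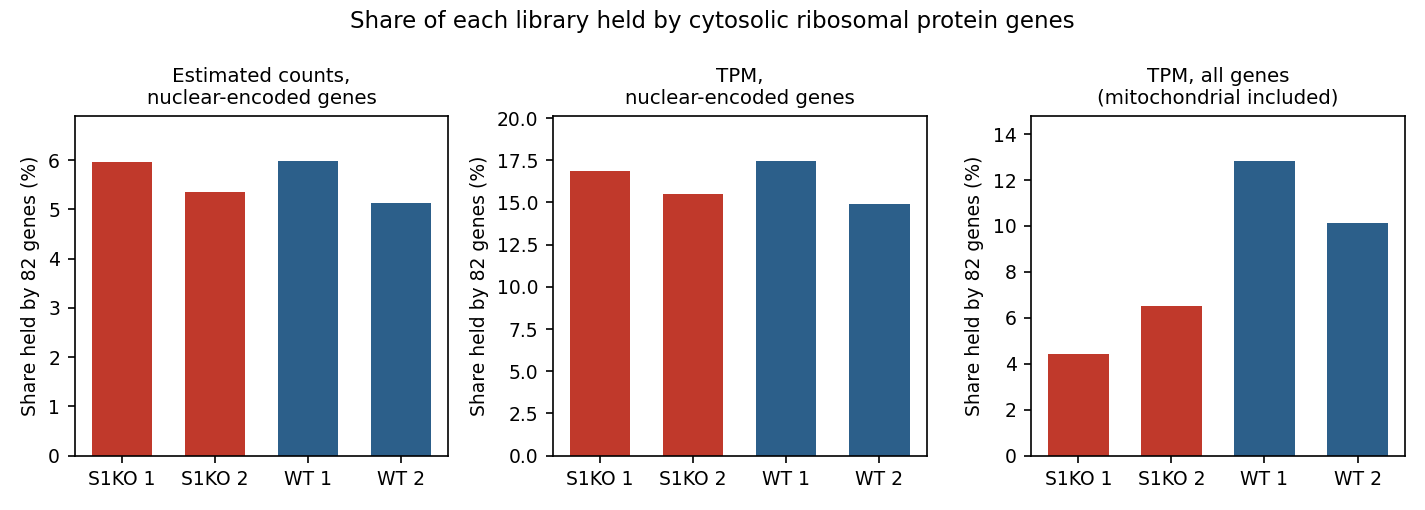
Share (%) of each library held by the 82 cytosolic ribosomal protein genes, in estimated counts and TPM of nuclear-encoded genes and in TPM of all genes. Both S1KO libraries lie between the WT libraries in the first 2 panels (16.8% and 15.5% of nuclear TPM in S1KO, against 17.5% and 14.9% in WT) and below them in the third (4.45% and 6.52%, against 12.8% and 10.1%).

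The balance between the subunits moved by under 1 percentage point between libraries. Large-subunit genes made up 58.4% and 58.7% of the members' TPM in S1KO, against 58.5% and 58.2% in WT. The mean large-subunit gene stood at 1968 and 1820 nuclear TPM in S1KO, against 2045 and 1736 in WT. The mean small-subunit gene stood at 2186 and 2005 nuclear TPM in S1KO, against 2267 and 1952 in WT. In both subunits the S1KO libraries lay inside the WT range.

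Single members were expressed at very different estimated levels, and their order was shared by the libraries. The median member had 1799 nuclear TPM over the 4 libraries, 64 members exceeded 1000 and 3 stood under 10. Among the members of high level, RPL13, a large-subunit protein, had 4513 and 4790 nuclear TPM in S1KO, against 5354 and 4956 in WT. RPS23, at the decoding centre, had 4637 and 4084 nuclear TPM in S1KO, against 4977 and 4409 in WT. RPS19, RPS18, RPS20, RPL23 and RPL41 came after these. Over the 4 libraries the levels of RPL13 and those of RPS23 cover overlapping ranges, so their order is not firm. Spearman's rho of the levels over the 81 tested members was 0.907 to 0.984 between pairs of libraries. As a description across genes of the same libraries, rho was 0.976 between the S1KO libraries and 0.961 between the WT libraries, and across genotypes it ran from 0.907 (S1KO 1 with WT 2) to 0.984 (S1KO 2 with WT 1).

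**Figure D2:**
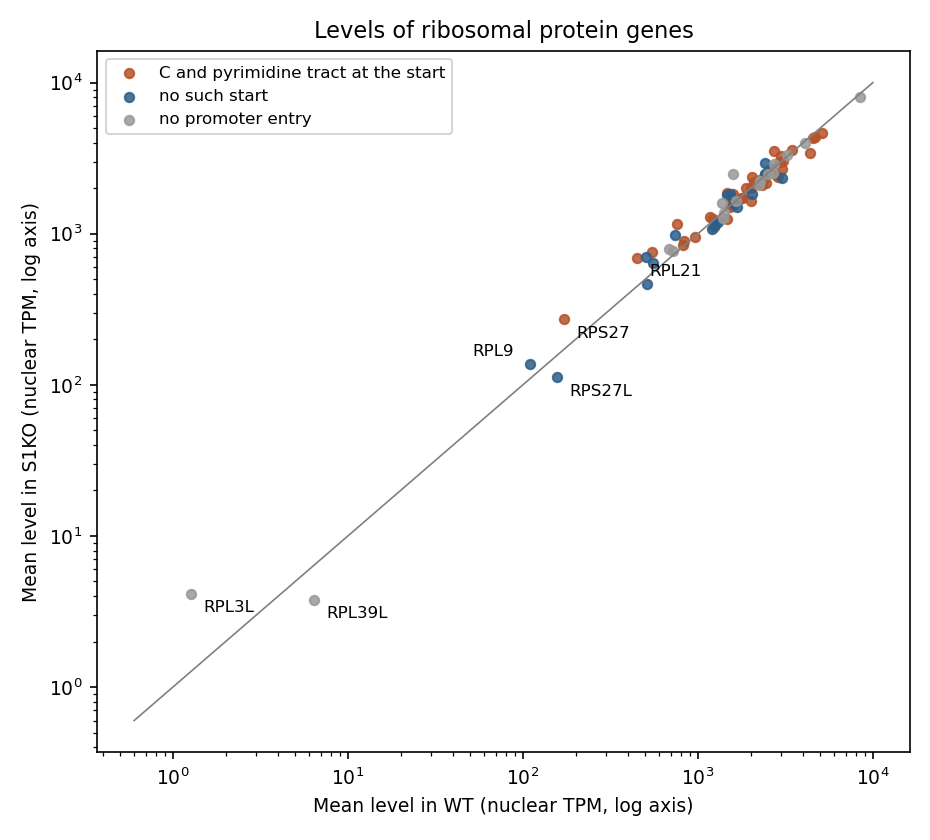
Mean level in S1KO (vertical, nuclear TPM, log axis) against mean level in WT (horizontal) for the 81 tested genes, coloured by whether the annotated start has C and a pyrimidine run; the line marks equal levels. Most genes lie near the line; RPL3L, RPL39L, RPL9, RPS27 and RPS27L have the lowest levels in both genotypes, with RPL3L, RPL9 and RPS27 above the line and RPL39L and RPS27L below it.

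No member changed between the genotypes at an adjusted p under 0.05 in edgeR's quasi-likelihood test, which called 144 of 15378 genes (0.936%). Only RPL21, 1 member, had an unadjusted p under 0.05, against 2993 genes overall (19.5%). DESeq2 called 1 member, again RPL21, against 7.49% of all genes. The log2 fold changes of the members, S1KO over WT, had a median of -0.07 (all genes -0.02) and an SD of 0.24 (all genes 0.91), and ran from -0.93 (RPL39L) to 0.67 (RPL3L). In 78 of 81 members (96.3%) the fold change was smaller than 0.5 on the log2 scale, against 64.4% of all genes. The 95% interval lay inside a 2-fold change either way for 77 members (95.1%), against 46.9% of all genes, most of which have far fewer counts. The exceptions were RPL21, RPL39L, RPL3L and RPL7. On log2(TPM + 1) and log2(TPM + 0.1), whose total includes the mitochondrial transcripts, limma called 5 and 4 members lower (17.9% and 16.4% of all genes) and 0 higher. The median was -0.07 for the 49 tested large-subunit genes and -0.07 for the 32 small-subunit genes.

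**Figure D3:**
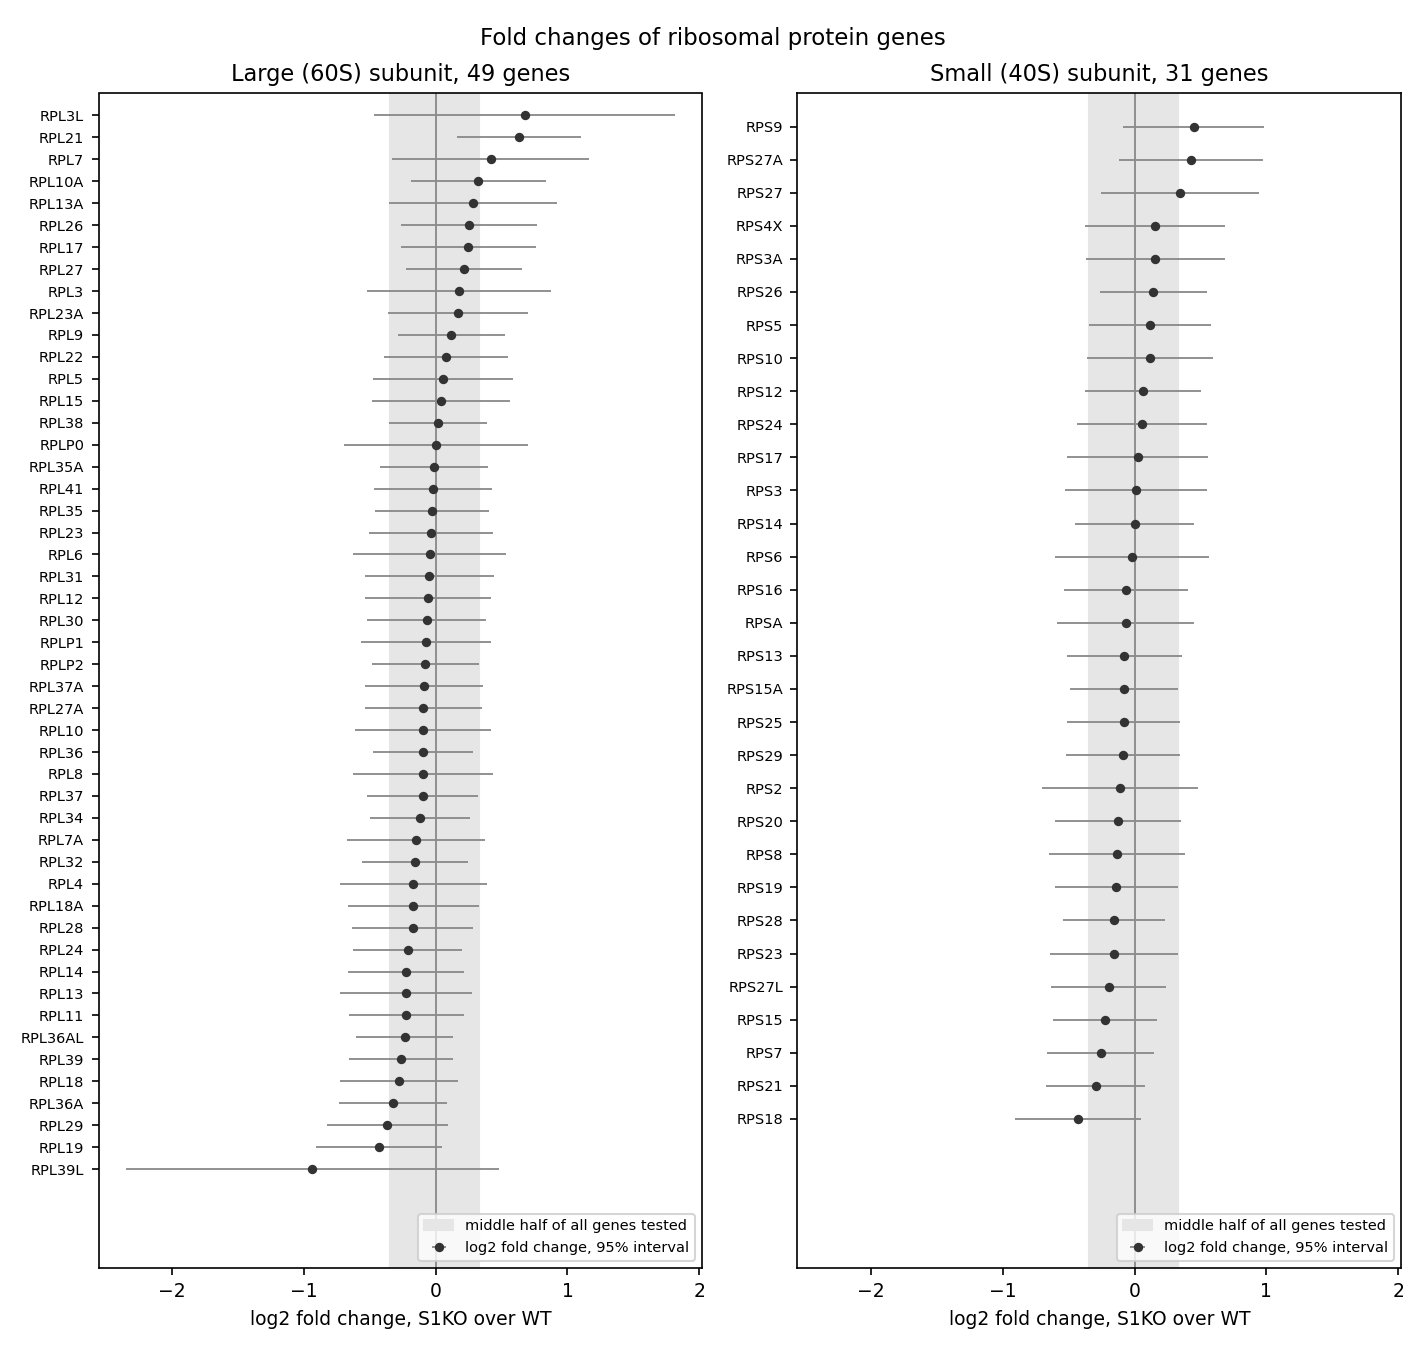
log2 fold change, S1KO over WT, with its 95% interval (points and bars) for 49 large-subunit and 31 small-subunit genes (1 tested small-subunit gene is not drawn); the grey band spans the lower to the upper quartile of all genes tested (-0.35 to 0.33). The intervals of all genes drawn but RPL21 include 0, and the fold changes run from -0.93 to 0.67.

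By single libraries, for 24 members the 2 S1KO values lay below the 2 WT values, where 25.8% of all genes did so. Another 5 (RPL21, RPL3L, RPL9, RPS27A and RPS9) lay above them, where 26% of all genes did so. The other 52 members overlapped between genotypes, against 48.2% of all genes. The share of lower members is near the background, and that of higher members is below it. A negative fold change was seen in 53 members (65.4%, all genes 51.3%).

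The members' ratios between the libraries of 1 genotype were larger in size than their fitted fold changes between genotypes. On the TMM-scaled counts (CPM, adjusted for depth and library composition), S1KO 1 exceeded S1KO 2 in 70 of 81 members, with a median log2 ratio of 0.20. WT 1 exceeded WT 2 in 66 members, with a median of 0.15. Over all genes these medians were 0.00 in S1KO and -0.02 in WT. The median absolute log2 ratio of the members was 0.13 between genotypes, 0.21 within S1KO and 0.16 within WT, whereas over all genes it was 0.34 between genotypes, 0.26 within S1KO and 0.31 within WT. A ratio within a genotype sets single libraries side by side, while the fold change averages 2 libraries of each genotype. Noise alone makes the averaged value smaller, so these sizes do not show that the genotypes differed less. Leaving out 1 library moved the members' median to either side of 0. It was -0.16 without S1KO 1, 0.01 without S1KO 2, 0.04 without WT 1 and -0.12 without WT 2. Across the 79 members at 10 nuclear TPM or more, the log2 ratio of WT 1 to WT 2 had a Pearson r of 0.44 with that of S1KO 1 to S1KO 2, a description of genes that share their libraries. RPL7 lay far apart within both genotypes, by 0.49 in S1KO and 0.76 in WT, and RPLP0 by 0.28 and 0.72. WT 1 also held mesenchymal transcripts: the summed level of 8 mesenchymal markers was 14.1 and 13.6 nuclear TPM in S1KO, against 1244 in WT 1 and 7.95 in WT 2, with none of the 8 at 0 in all libraries. The part of these transcripts in the members' difference between WT 1 and WT 2 was not tested.

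**Figure D4:**
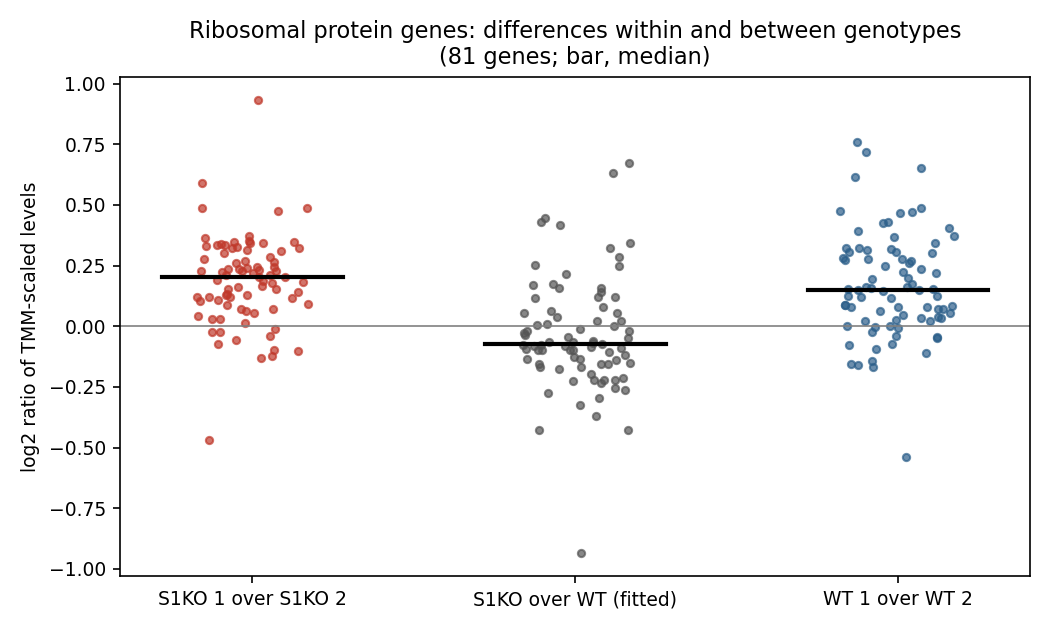
log2 ratios of TMM-scaled levels for the 81 tested genes (points; bar, median): S1KO 1 over S1KO 2, the fitted S1KO over WT fold change, and WT 1 over WT 2. The medians are 0.20, -0.07 and 0.15.

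The acidic stalk, which recruits the translation factors that hydrolyse GTP, showed no member past the threshold. RPLP0, its base, had 896 and 740 CPM in S1KO, against 1014 and 616 in WT (log2 fold change 0.01 ± 0.29, SE). RPLP1 had 751 and 715 CPM in S1KO, against 830.5 and 712 in WT (-0.07 ± 0.20). RPLP2 had 308 and 302 CPM in S1KO, against 313 and 330.3 in WT (-0.08 ± 0.17). The S1KO values of RPLP0 lay inside the WT range, RPLP1 overlapped, and RPLP2 was lower in both S1KO libraries by less than the error of its fold change.

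RPL5 and RPL11 enter the ribosome with the 5S rRNA and, when free, bind the p53 regulator MDM2. RPL5 had 580.1 and 489 CPM in S1KO, against 579.6 and 449 in WT, so the genotypes overlapped. RPL11 had 423 and 387 CPM in S1KO, against 473 and 472 in WT, lower in both S1KO libraries with a log2 fold change of -0.22 ± 0.18 and an adjusted p of 0.547 in edgeR.

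Of the small-subunit proteins with known roles, RPS6, the substrate of the S6 kinases, had 975 and 783 CPM in S1KO, against 1013 and 770.5 in WT (-0.02 ± 0.24). RPS2 and RPS3 line the channel through which mRNA enters. RPS2 had 897 and 761 CPM in S1KO, against 1037 and 750.2 in WT, and RPS3 had 720.0 and 568 CPM in S1KO, against 700.4 and 578 in WT. RPS19, mutated in Diamond-Blackfan anaemia, had 747 and 731 CPM in S1KO, against 824 and 803 in WT (-0.14 ± 0.19). RPSA, also described as a laminin receptor, had 399 and 313 CPM in S1KO, against 413 and 334 in WT. RPS6, RPS2, RPS3 and RPSA overlapped between the genotypes, and RPS19 was lower in both S1KO libraries by less than the error.

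At the upper end stood RPL21, a large-subunit protein encoded on the plus strand of chr13:27251309-27256691 (GRCh38). It had 203 and 162 CPM in S1KO, against 129 and 107 in WT. Both S1KO libraries were above both WT libraries, and the log2 fold change was 0.63 ± 0.19 (SE; 95% interval 0.16 to 1.10). The adjusted p was 0.166 in edgeR (unadjusted 0.0158) and 0.0496 in DESeq2. Over the 19 alternatives the adjusted p ran from 0.0166 to 0.704 and 2 called it. The direction held in 17 of them; on both TPM scales that keep mitochondrial transcripts in the total the value was -0.44, within 1 SE of 0. RPL21 has 66 annotated pseudogenes. To these, 3.67% and 6.06% of the reads of gene and pseudogenes together were assigned in S1KO, against 2.58% and 3.70% in WT. With the pseudogenes added to RPL21, the log2 fold change was 0.66 ± 0.19 (95% interval 0.21 to 1.11, adjusted p 0.145 in edgeR). Of the 31-base words of its main transcript, 58.6% also occur in transcripts of other genes.

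RPS27A, made as a fusion with ubiquitin, had 230 and 182 CPM in S1KO, against 178 and 127 in WT (0.43 ± 0.23, adjusted p 0.356 in edgeR). RPL7 had 666 and 475 CPM in S1KO, against 537 and 317 in WT (0.42 ± 0.31), and the genotypes overlapped. RPL10A, of the ribosome's L1 stalk, had 187 and 147 CPM in S1KO, against 152 and 115 in WT (0.32 ± 0.21), and overlapped as well. RPL13A, which in human monocytes can leave the ribosome and silence inflammatory mRNAs as part of the GAIT complex, had 1645 and 1270 CPM in S1KO, against 1373 and 1020 in WT (0.28 ± 0.27). It too overlapped. Without WT 1, where WT is 1 library and its spread is assumed to be that of the S1KO pair, edgeR called RPL21, RPL7 and RPS27A higher (3 members, where 5.96% of all genes were), with log2 fold changes of 0.77, 0.85 and 0.69.

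At the lower end, RPS18 and RPL19 had nearly equal fold changes. RPS18, in the head of the small subunit, had 560.5 and 478 CPM in S1KO, against 688 and 707 in WT (-0.43 ± 0.20, adjusted p 0.301 in edgeR). RPL19, which takes part in a bridge between the subunits, had 568 and 510.3 CPM in S1KO, against 683 and 766 in WT (-0.43 ± 0.20, adjusted p 0.302). Both genes were lower in both S1KO libraries and neither passed the threshold. RPL29 had 407 and 349 CPM in S1KO, against 509 and 466 in WT (-0.37 ± 0.19). RPL36A, near the exit site for tRNA, had 255 and 232 CPM in S1KO, against 309 and 302 in WT (-0.32 ± 0.17). RPS21 (-0.30), RPL18 (-0.28) and RPL39 (-0.26), which lines the exit tunnel, followed. These genes were also lower in both S1KO libraries, with adjusted p from 0.350 to 0.461 in edgeR.

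Members with a related copy were set beside that copy by their estimated levels. RPL10L and RPL39L, best known from testis, and RPL3L, best known from skeletal muscle and heart, were the 3 members under 10 nuclear TPM. RPL10L had 5 estimated counts in S1KO 1 and 0 in S1KO 2, WT 1 and WT 2, and was not tested. RPL39L had 4.64 and 2.94 nuclear TPM in S1KO, against 7.98 and 4.79 in WT, which was 0.105% to 0.256% of the TPM of RPL39 and RPL39L together. RPL3L had 3.91 and 4.39 nuclear TPM in S1KO, against 1.32 and 1.22 in WT. On CPM, where length is not corrected, RPL3L had 1.64 and 2.27 in S1KO, against 1.26 and 1.19 in WT, with a log2 fold change of 0.67 ± 0.47 (adjusted p 0.483 in edgeR). RPL36AL, the autosomal copy of the X-linked RPL36A, held 15.8% and 17.0% of the pair's TPM in S1KO, against 14.4% and 15.9% in WT. RPL36A and RPL36AL were both lower in both S1KO libraries, RPL36AL by -0.24 ± 0.15 on the log2 scale. RPS27L, a p53 target, held 25.7% and 34.1% of the TPM it shares with RPS27 in S1KO, against 46.6% and 49.1% in WT. That pair did not overlap between the genotypes, yet on CPM neither gene passed the threshold (RPS27 0.34 ± 0.25, RPS27L -0.20 ± 0.18). RPS27 itself was estimated at 332 and 211 nuclear TPM in S1KO, against 189 and 153 in WT, far under the median member. Retained-intron transcripts took 16.5% and 32.21% of RPS27's counts in S1KO, against 32.16% and 61.4% in WT. The part of this make-up in the pair's shares of TPM was not tested. RPL22L1 and RPL26L1, copies outside the symbol rule, held 6.02% to 8.76% and 2.41% to 4.95% of the TPM of their pairs over the 4 libraries.

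Some members' values depend on how reads were divided between a gene and its annotated pseudogenes or copies. The pseudogenes annotated for the members number 1132, and for 69 members they took under 1% of the reads of gene and pseudogenes. RPL9 had the highest such share; it lies at chr4:39452521-39458949 (GRCh38), on the minus strand. Its pseudogenes took 93.4% and 92.7% of these reads in S1KO, against 93.3% and 93.2% in WT, almost all of them in RPL9P9. The transcript RPL9P9-201 shares 74.7% of the 31-base words of RPL9's main transcript. It held 129 and 234 counts in S1KO, against 253 and 233 in WT. RPL9P9 as a whole held 6778 and 9544 counts in S1KO, against 12322 and 13202 in WT. No such overlap is shown here for the RPL9P9 transcripts that hold the rest. RPL9 stood at 130 and 145 nuclear TPM in S1KO, against 112 and 109 in WT, whereas RPL9P9 stood at 2019 and 2064 in S1KO, against 1925 and 1732 in WT. Summed, gene and pseudogenes reached 2154 and 2219 nuclear TPM in S1KO, against 2046 and 1847 in WT, a level near that of other large-subunit genes, with a log2 fold change of 0.08 ± 0.18. RPL23A followed, with pseudogenes at 18.2% and 20.9% in S1KO, against 19.2% and 18.7% in WT. Pseudogenes other than those of RPL9 took 0.712% and 0.816% of the members' reads in S1KO, against 0.494% and 0.570% in WT, higher in both S1KO libraries. The number of pseudogenes annotated per member had a Pearson r of 0.37 with the fold change over 79 members, of 0.43 with the ratio of S1KO 1 to S1KO 2 and of 0.28 with that of WT 1 to WT 2, given as descriptions across genes.

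RPS9, a small-subunit protein near the mRNA entry channel, was another such case. The quantified set holds 6 transcripts without a gene name, 711 nucleotides long, that received the same counts in each library as a transcript of RPS9. The files do not say which gene they belong to, and the sums that follow take them as copies of RPS9. The gene named RPS9 had 272 and 277 CPM in S1KO, against 164 and 238 in WT, a log2 fold change of 0.45 ± 0.22 (adjusted p 0.328 in edgeR). Counted with RPS9, the unnamed transcripts held 61.6% and 56.3% of the sum in S1KO, against 75.8% and 60.4% in WT. With them added, the sum stood at 3066 and 2819 nuclear TPM in S1KO, against 2922 and 2333 in WT, and the log2 fold change was 0.07 ± 0.20 (adjusted p 0.885 in edgeR). Without WT 2, with the same assumption and with WT 1, the library of lowest RPS9, alone for WT, edgeR called the named RPS9 higher (1 member, where 5.92% of all genes were), with a log2 fold change of 0.75.

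**Figure D5:**
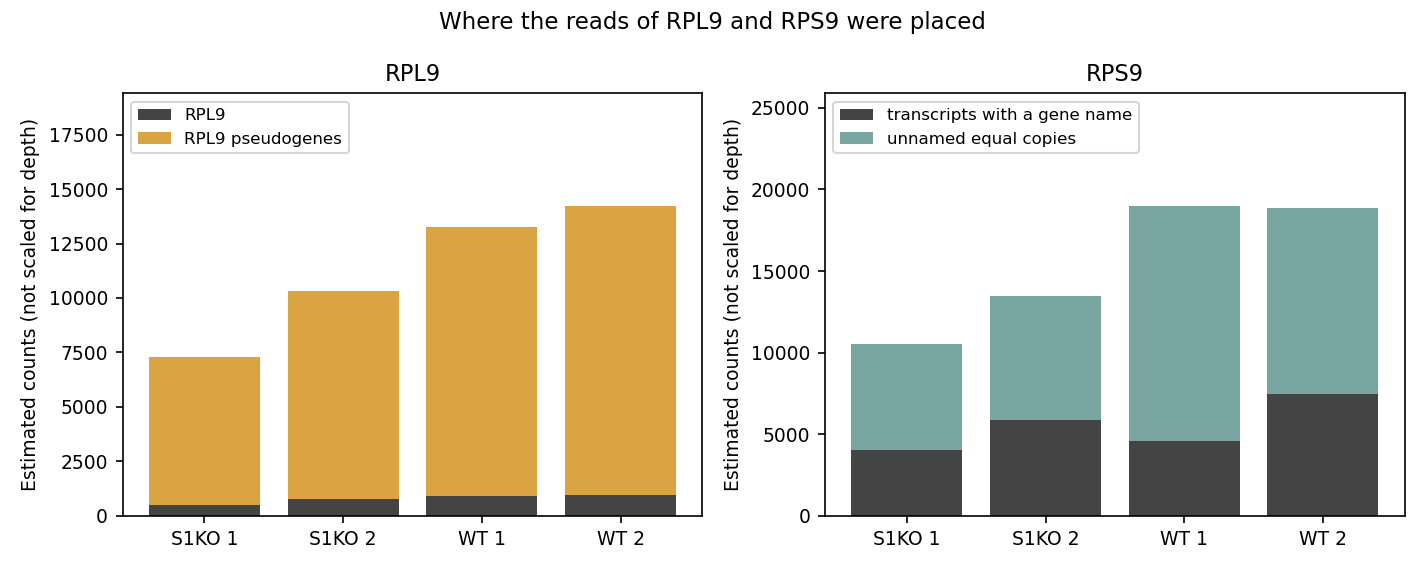
Estimated counts per library, not scaled for depth, of RPL9 and its pseudogenes (left) and of RPS9 transcripts with a gene name and unnamed transcripts of equal length and counts, whose gene is not given (right). The pseudogenes hold 92.7% to 93.4% of the sum on the left in every library. The unnamed transcripts hold 56.3% to 75.8% of the sum on the right, most in WT 1.

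Most reads of the members came from coding transcripts. Transcripts annotated as protein-coding took 89.4% and 87.9% of the members' counts in S1KO, against 88.1% and 85.8% in WT. Retained-intron transcripts took 6.68% and 7.71% in S1KO, against 7.89% and 9.53% in WT, lower in both S1KO libraries. In other coding genes they took 8.77% and 11.2% in S1KO, against 10.7% and 12.2% in WT. The difference in means, S1KO minus WT, was -1.51 percentage points in the members and -1.51 in the other coding genes. Of the 66 tested members with such a transcript, 14 had a lower share in both S1KO libraries, where 29.8% of protein-coding genes did, and 4 a higher one, where 15.3% did. The share was over 25% in every library for 6 members. RPL14 had 75.6% and 81.3% in S1KO, against 82.1% and 85.04% in WT, and RPL4 had 57.4% and 62.5% in S1KO, against 65.5% and 74.6% in WT. RPS23 had 45.9% and 47.7% in S1KO, against 51.1% and 55.4% in WT. These 3 were lower in both S1KO libraries. RPL11 had 47.5% and 44.8% in S1KO, against 47.3% and 47.99% in WT, and RPL9 and RPS28 overlapped as it did. RPL10A had 9.69% and 13.7% of its counts in processed transcripts in S1KO, against 20.4% and 29.4% in WT, and did not overlap. RPL37 had 58.6% and 63.3% of its counts in processed transcripts in S1KO, against 63.2% and 66.2% in WT, and overlapped.

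Members with and without a TOP start, read at the exact annotated base, had like median fold changes. Some members counted as without it, such as RPL19, RPL36AL and RPS7, have a pyrimidine run that begins before that base. The medians therefore cannot show whether a TOP start matters. The median log2 fold change was -0.07 for the 46 tested members with such a start and -0.07 for the 18 without. The 760 other tested genes with such a start had a median of -0.03, and edgeR called 2 higher and 1 lower (0.787% and 0.15% of all genes). The listed TOP mRNAs outside the symbol rule, mostly translation factors, had a median of 0.13, with 0 of 26 called by edgeR or DESeq2 and 3 at an unadjusted p under 0.05. EEF1A1, the factor that brings tRNA to the ribosome, had 7223 and 5520 CPM in S1KO, against 5202 and 4667 in WT (0.37 ± 0.30). EEF2, which moves the ribosome along, had 1577 and 1127 CPM in S1KO, against 1215 and 986 in WT (0.30 ± 0.26).

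RACK1 and FAU, ribosome components outside the rule, did not pass the threshold. RACK1, a scaffold on the small subunit, had 860.4 and 672 CPM in S1KO, against 836 and 686 in WT (0.01 ± 0.23). FAU, the fusion that yields a small-subunit protein, had 177 and 166 CPM in S1KO, against 208 and 274 in WT, lower in both S1KO libraries (-0.49 ± 0.19, adjusted p 0.240 in edgeR).

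The lists of genes that make, load or regulate ribosomes held 1 gene called by edgeR. Over all 15378 genes tested, DESeq2 called 649 higher and 503 lower, and 19.5% had an unadjusted p under 0.05 in edgeR. Of 15 RNA polymerase I genes, edgeR called 1 higher (0.787% of all genes were), the transcription termination factor TTF1, with 57.4 and 51.2 CPM in S1KO, against 23.6 and 25.7 in WT (1.14 ± 0.17, adjusted p 0.0483). DESeq2 called 2 of this list higher, TTF1 and TAF1D (0.75 ± 0.22), 3 had an unadjusted p under 0.05, and the median was 0.05. Of 56 ribosome biogenesis factors edgeR called 0, with 5 at an unadjusted p under 0.05 and 2 called higher by DESeq2, and a median of 0.02. These were NOP58, a core protein of snoRNA particles (0.68 ± 0.16), and PELP1 (0.59 ± 0.15). Of 33 initiation factors edgeR called 0, with 5 at an unadjusted p under 0.05 and a median of 0.15, 25 of them positive. DESeq2 called 2 higher, EIF5B, which joins the subunits (302 and 293 CPM in S1KO, against 186 and 159 in WT), and EIF3J (124 and 112 CPM in S1KO, against 79.6 and 62.5 in WT). Of 10 elongation and release factors edgeR and DESeq2 called 0, with 0 at an unadjusted p under 0.05. Their median was 0.17, 8 were positive, and their summed level was 12845 and 11268 nuclear TPM in S1KO, against 9962 and 9051 in WT. Most of this sum was 1 gene, EEF1A1, with 8082 and 6849 nuclear TPM in S1KO, against 5983 and 5575 in WT. Of 8 genes listed as chaperones of ribosomal proteins both called 0, with 0 at an unadjusted p under 0.05 and a median of -0.22, 7 of them negative. Of 78 mitochondrial ribosomal proteins, which serve the ribosome of mitochondria, edgeR called 0, DESeq2 1 and 6 had an unadjusted p under 0.05, with a median of -0.06.

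Among 17 regulators of TOP mRNAs and of RPS6 phosphorylation, edgeR and DESeq2 called 0, with 2 at an unadjusted p under 0.05. MTOR had 66.4 and 55.3 CPM in S1KO, against 73.7 and 74.2 in WT (-0.28 ± 0.17). LARP1 had 144 and 149 CPM in S1KO, against 148 and 140.3 in WT (0.02 ± 0.15). EIF4EBP2, which holds back cap-dependent initiation, had 147 and 117 CPM in S1KO, against 86.2 and 94.5 in WT, higher in both S1KO libraries (0.55 ± 0.18, adjusted p 0.184 in edgeR). LARP1 overlapped between the genotypes and MTOR was lower in both S1KO libraries.

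As a check of the labels, INPP5D had 80.99 and 97.6 CPM in S1KO, against 356 and 440.96 in WT (-2.16 ± 0.21, adjusted p 0.0184 in edgeR). Depth was 22334585 to 22792480 estimated counts in S1KO and 21516813 to 25927881 in WT, of which 9319000 and 12891104 in S1KO, against 18055337 and 20540060 in WT, lay outside mitochondrial genes and their copies. The 16 microglial and myeloid markers were all tested, with a summed level of 10252 and 11197 nuclear TPM in S1KO, against 15169 and 15208 in WT. Their median log2 fold change was -0.74, with 13 of 16 negative. Of these markers, edgeR called P2RY12 lower (0.15% of all genes were) and DESeq2 called 9 lower (503 of 15378 genes were). An unadjusted p under 0.05 in edgeR was seen for 10 of them, against 19.5% of all genes.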

How the data were processed

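The data are poly-A RNA-seq of iMGL from the WTC11 line, sequenced as paired reads of 150 bp per the labels' protocols, with 2 S1KO and 2 WT libraries. Per the submitters' processing notes, the authors used kallisto and the build hg38. The version and transcript set were not given in the sources used here. Per the file headers, the deposited values are the estimated count and the TPM of each transcript. A read that matches several transcripts is divided among them, so near-identical copies can take reads from a gene.

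Transcripts were summed to genes with GENCODE 29 (GRCh38), 169797 by identifier and 15521 by symbol, and 3435 without a name were left out. Gene sums of estimated counts were rounded, filtered with filterByExpr (15378 of 35585 genes) and tested with edgeR 4.0.16 in R 4.3.3 (TMM, glmQLFit with legacy=TRUE, glmQLFTest, two-sided, genotype as the only term, Benjamini-Hochberg at 0.05). Levels are CPM scaled by TMM (no prior count), or TPM rescaled to 1000000 over genes outside mitochondrially encoded genes and their nuclear copies (nuclear TPM). SEs of fold changes follow from the test statistic. When S1KO against WT was simulated with 15378 genes, edgeR called 25% of genes changed 2-fold and 86% of those changed 4-fold, and 4 of 115 calls were false. Total estimated counts were 21516813 to 25927881, and Wilson 95% intervals cover counting error only.

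Libraries were grouped by the labelled genotype. Genes were named by a rule: INPP5D, members past the threshold, the 8 members of highest and of lowest fold change, the 8 of highest TPM, members with a related copy, members of fixed role, and up to 4 of smallest p per list; TTF1, TAF1D, NOP58, PELP1, EIF5B and EIF3J were named by this last part. Members discussed for their pseudogenes (RPL9, RPL23A) or transcript classes (RPL14, RPL4, RPS23, RPL11, RPS28, RPL37) were chosen after their values were seen, and RACK1, FAU, EEF1A1, EEF2, MTOR and LARP1 for their roles. Some of these genes are not reported here. The members and lists were chosen with earlier results of these data known. None of 13 snoRNA host genes had a quantified transcript, and that list was not analysed here. Marker lists of other cell types were summed in nuclear TPM: stem cell 13.0 and 14.9 in S1KO, against 10.8 and 24.2 in WT; neural 14.7 and 16.9 in S1KO, against 21.6 and 12.0 in WT; progenitor 6.92 and 5.71 in S1KO, against 1.56 and 4.68 in WT; erythroid 1.39 and 3.59 in S1KO, against 2.04 and 2.25 in WT; granulocyte 1.78 and 0.65 in S1KO, against 0.27 and 0.76 in WT; cycling 216 and 209 in S1KO, against 250.3 and 151 in WT. Ribosomal protein-like copies outside the rule (3 genes) had 0 calls by edgeR and DESeq2 and 1 at an unadjusted p under 0.05. Alternatives were DESeq2 1.42.0, its size factors in edgeR, other filters, a replicate block, each library left out, an effective-length offset, limma 3.58.1 on log2(TPM + 1) and log2(TPM + 0.1), mitochondrial genes left out, coding genes or transcripts only, and pseudogenes added to the parent gene.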

Additional observations from a re-analysis of the deposited data

How the results depend on the processing

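Over all genes, the count of calls depended strongly on the setting, against 144 as reported: 1152 with DESeq2, 2638 on log2(TPM + 0.1) and 2893 on log2(TPM + 1) with limma, 298 on log2(TPM + 1) without mitochondrial genes, 1362 with no filter, 223 with a stricter filter, 40 over protein-coding genes, 21 over protein-coding transcripts and 0 with the replicate number as a block. Leaving out 1 library gave 0 to 2148 calls, with 0 without either S1KO library; the spread then comes from the genotype that keeps a pair. The labels do not say that equal replicate numbers mark a shared culture or clone, so the numbers were not taken as pairs. Same-numbered libraries had a correlation of 0.02 in their deviations over all genes. Over the 79 members at 10 nuclear TPM or more, the correlation of these ratios was 0.44. With the block, the members' median was -0.07 and 0 members were called.

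The members stayed at 0 calls in either direction except as follows. DESeq2 called 1 higher, and leaving out 1 library gave 0 to 3 higher. On log2(TPM + 0.1) limma called 4 lower (RPL19, RPL39L, RPS18 and RPS27L, where 16.4% of all genes were called lower), and on log2(TPM + 1) it called 5 lower (RPL29 as well, background 17.9%). These scales keep mitochondrial transcripts in the total, which shifts the median of all genes to -0.97 and -0.78. The members' median was -1.07 on both, with -1.08 for the large and -1.07 for the small subunit, and the log2 ratios of the family's shares with all genes in the total were -0.72 for counts and -1.07 for TPM. RPL10A, RPL13A, RPL26 and RPS27A turned negative there by more than their SE, to -0.58, -0.70, -0.76 and -0.59 on either pseudocount. On TPM rescaled without mitochondrial genes, the members' median was 0.00, against 0.06 for all genes. The cause of the other changes was not tested.

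Of 741 member fold changes under alternatives, 65 changed sign, 57 of them with a value within 1 SE of 0. The legacy setting of edgeR turned off and the unnamed transcripts equal to one of RPS9 added were chosen after seeing the data, and neither added a member call. At 2 libraries per genotype, most 2-fold changes of a gene would be missed, and p-values adjusted over all genes cannot show that members were equal.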
